A study of Rattus norvegicus with 12 samples.

Results

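The comparison set the 8 brain RNA libraries of an Alzheimer's disease model, 4 without (AD) and 4 with a high-fat diet (AD-HFD), as one side against the 4 libraries of the control group, Sham. Membership came from the group names alone and takes in 12 of the 12 libraries of the study. The study asked what the model and an added metabolic load do to the brain transcriptome, and pooling the model groups asks which changes all model libraries share. The labels name the tissue as brain and give no strain, age, sex, brain region, genotype or agent used to make the model. They do not give the diet's content or duration or say what the Sham animals received, and a group on the diet alone is not analysed here. The labels also speak of mice, whereas the organism field gives Rattus norvegicus and the identifiers belong to that species, so genes are treated here as rat genes. Whether the libraries of a group are different animals is not stated. The p-values therefore measure only the spread between libraries, which may be technical.

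Alzheimer's disease is defined by extracellular amyloid plaques and by tau tangles within neurons, and is accompanied by loss of synapses. Microglia, the resident macrophages of the brain, and astrocytes, which take up transmitters and supply neurons, both alter their gene expression near damage. Reactive microglia switch on phagocytic and lipid-handling genes and complement, and reactive astrocytes switch on intermediate filaments, acute-phase proteins and cytokine receptors.

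Total counts ran from 26668974 to 35351792 per library, and 18850 genes had enough counts to be tested. Neuronal genes were abundant in every library: the summed level of 15 general neuron markers was 11000 to 14280 CPM (counts scaled by library size) in Sham and 2355 to 11340 in the model libraries. Region markers differed between libraries of the same group. Thalamus markers, 12 in number, had a mean log2 CPM of 5.75, 6.29 and 3.93 in AD-4, AD-1 and AD-2, against 1.33 to 2.26 in Sham, 1.60 in AD-3 and 1.35 to 2.36 in AD-HFD. For 17 markers of cortical and hippocampal excitatory neurons it was 3.01, 3.02 and 2.33 in AD-4, AD-1 and AD-2, against 6.58 to 6.92 in Sham, 5.53 in AD-3 and 4.11 to 6.38 in AD-HFD. Choroid plexus markers were high in Sham-2, Sham-3, AD-HFD-1 and AD-HFD-2 (means of 6.07, 5.52, 7.06 and 3.29) and at -0.75 to 0.91 in the other 8 libraries. Red blood cell markers had means of 2.25 to 3.27 in Sham, 3.07 to 4.12 in AD and 2.89 to 6.81 in AD-HFD, with AD-HFD-4 highest. Their part in the results was not tested beyond the fits below that leave out libraries or take a marker mean as a covariate. In such bulk samples, fewer cells of a type and less RNA per cell cannot be told apart.

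**Figure D1:**
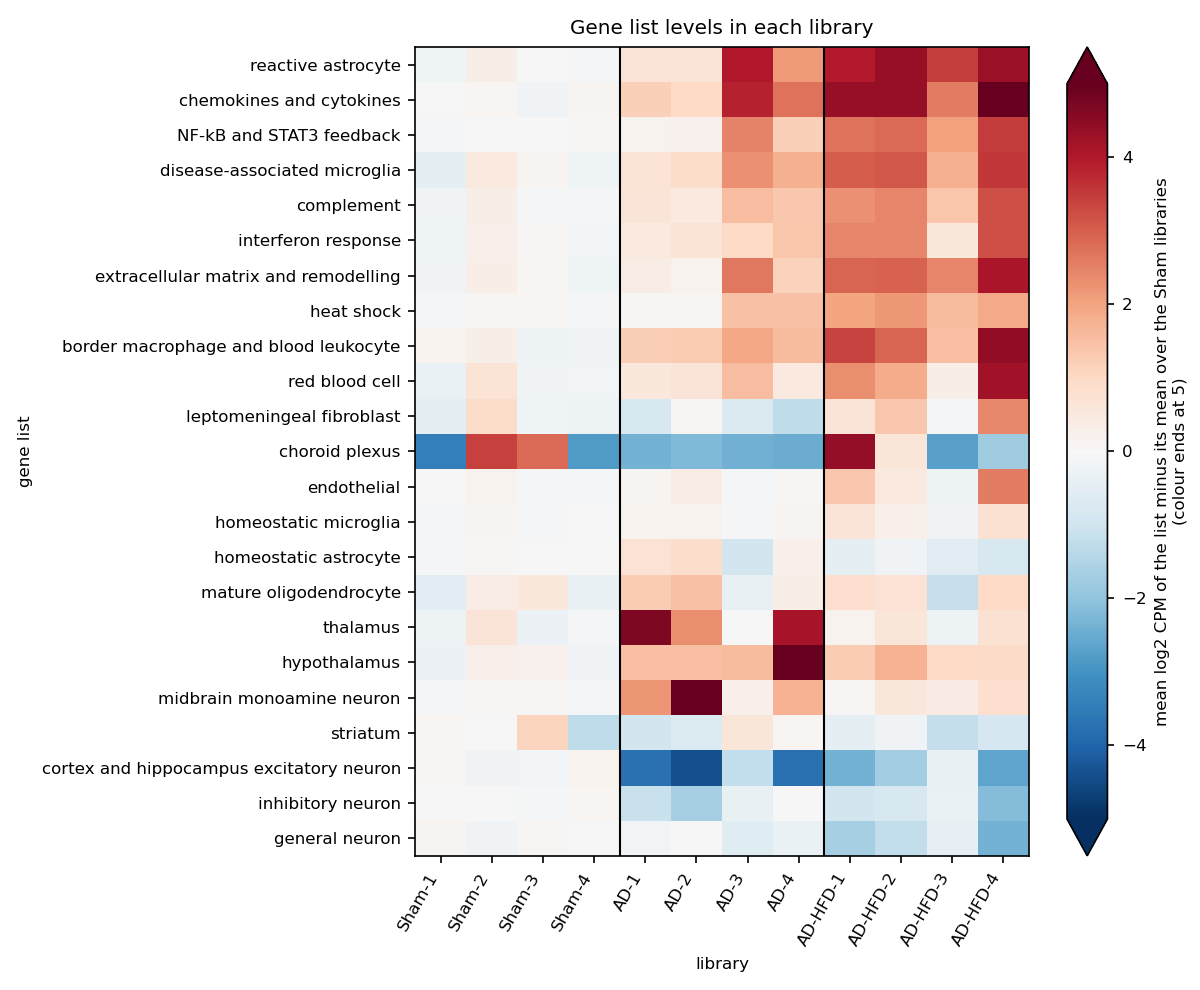
Mean log2 CPM of 23 gene lists (vertical axis) in each of the 12 libraries (horizontal axis), as the difference from the list's mean over the 4 Sham libraries. Inflammatory lists are red in the model libraries, most strongly in AD-HFD-1, AD-HFD-2 and AD-HFD-4. Thalamus markers single out AD-4, AD-1 and AD-2. Cortex markers are lowest in those libraries and also below Sham in the other model libraries.

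Called genes are those with an adjusted p under 0.05 in the quasi-likelihood test of edgeR, adjusted after Benjamini and Hochberg, for the mean of the AD and AD-HFD log2 levels minus Sham. The test called 4298 genes (22.8% of those tested), 2483 higher (13.2%) and 1815 lower (9.63%) in the model libraries. The counts given for each gene list below are to be read beside these shares. Of the called genes, 1146 were also higher in each of the 8 model libraries than in any Sham library (6.08%), here named common rises, and 1073 were lower in each (5.69%), named common falls. Without the test, 6.54% of genes were above and 6.42% below Sham in all 8 model libraries. Common rises had a median log2 fold change of 1.498 and common falls of -1.21, against 0.04 over all genes tested. The remaining 2079 called genes overlapped with Sham, 1269 of them through AD libraries only, 582 through AD-HFD libraries only and 228 through both.

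The common changes differed in size between libraries. The median of the common rises above the Sham mean was 0.75, 0.80, 1.32 and 0.98 log2 in AD-1 to AD-4 and 1.69, 1.73, 1.00 and 2.21 in AD-HFD-1 to AD-HFD-4. The common falls stood at -0.94 to -1.05 in the AD libraries and at -1.56, -1.35, -0.64 and -1.94 in the AD-HFD libraries. AD-HFD-3 was therefore the nearest to Sham within its group and AD-HFD-4 the farthest.

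How many genes were called depended on single libraries. It fell to 1563, 1990, 2541 and 1511 when Sham-4, Sham-3, Sham-2 or Sham-1 was left out and rose to 6970 without AD-HFD-3, while leaving out any other model library gave 3210 to 4791. Of the 2219 common changes, 1124 were called in all 12 fits that each left out 1 library (618 rises and 506 falls). Their direction is fixed by the absence of overlap and says nothing of stability. Without AD-4, AD-1 and AD-2 the AD group is AD-3 alone, so the fit with separate group means had 1 AD library. With 1 mean for the 5 model libraries left, a fit chosen after seeing the data, 2120 of the 2219 were called. All 5 but AD-3 are AD-HFD, so that count mainly sets AD-HFD against Sham. It does not show that the changes persist in AD. With the mean thalamus marker level as a covariate 1589 of the 2219 were called. With the red blood cell mean it was 553 and with the cortical and hippocampal neuron mean 605. Without Sham-2 and Sham-3, the test called 289 genes in all, 87 of them higher.

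**Figure D2:**
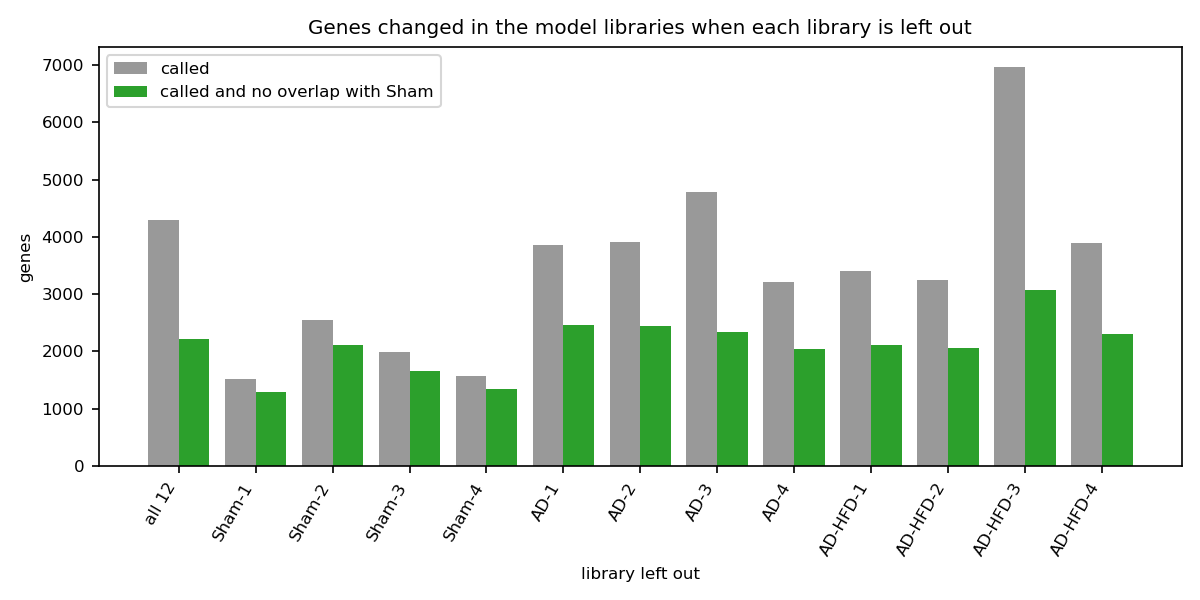
Number of genes (vertical axis) called in the model libraries against Sham (grey) and called with no overlap with Sham (green), with all 12 libraries and with each library left out in turn (horizontal axis). Both counts were lower without any 1 Sham library than with all 12, at 1511 to 2541 called genes, and highest without AD-HFD-3, at 6970.

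The most sharply separated genes were not those of the inflammatory lists. Ccdc77, which encodes a coiled-coil protein, had the smallest p of the common rises that have a gene name and a mean of at least 1 CPM. Its levels were 2.22, 2.17, 2.31 and 2.17 CPM in Sham-1 to Sham-4, 16.2, 19.5, 17.2 and 18.4 in the AD libraries and 18.7, 19, 13.5 and 15.7 in the AD-HFD libraries. The model libraries all lay far above Sham and within a narrow band, with a log2 fold change of 2.96 ± 0.16 (SE; edgeR quasi-likelihood test, Benjamini-Hochberg adjusted p = 3.58e-06). Bag3, a co-chaperone that directs misfolded proteins to autophagy, stood at 7.71, 9.1, 10.7 and 9.2 CPM in Sham and at 37.6 to 106 CPM (median 70.2) in the model libraries. Gpd1, the cytosolic glycerol-3-phosphate dehydrogenase that links glycolysis to lipid synthesis, stood at 94.4, 128, 145 and 99.7 CPM in Sham and at 508 to 1252 CPM (median 679) in the model libraries. Neither gene overlapped between the sides, and their log2 rises were 2.96 ± 0.30 and 2.61 ± 0.25 (edgeR adjusted p = 0.0003 and 0.000222). Tuft1 and Arhgef40, a guanine nucleotide exchange factor, completed the 5 with rises of 2.72 and 1.23.

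Among the falls within the same limits, Pip4k2c, a phosphatidylinositol-5-phosphate 4-kinase, had the smallest p. It was at 139, 109, 109 and 133 CPM in Sham, 29.4, 33.9, 42.8 and 31 in AD and 55.3, 57.5, 57 and 54.7 in AD-HFD. All 8 model libraries were under the lowest Sham value, and the gene fell by 1.48 ± 0.12 on the log2 scale (edgeR adjusted p = 8.26e-05). Camkk2, the calcium-dependent kinase that activates AMP-activated protein kinase, was at 67.2, 55.5, 55.2 and 64.8 CPM in Sham and at 7.62 to 17.9 CPM (median 12.2) in the model libraries. Gucy1a1, a subunit of the nitric oxide receptor guanylate cyclase, was at 106, 90.3, 89.9 and 90.6 CPM in Sham and at 9.58 to 40.3 CPM (median 22.4) in the model libraries. Neither overlapped, and they fell by 2.32 ± 0.21 and 2.04 ± 0.21 (edgeR adjusted p = 0.000135 and 0.000331). Pcdhb8, a clustered protocadherin, and Tnnc2, a troponin C, fell by 1.82 and 2.60. The protocadherin beta genes are near copies of one another, so counts of Pcdhb8 are uncertain. These 10 genes were called in each of the 31 alternative analyses, as were 16 others of the 125 called genes named by rule, among them Spp1, Igf1, the C1q genes, Cd163, Cryab, Cdkn1a, Angptl4 and Lhx2.

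**Figure D3:**
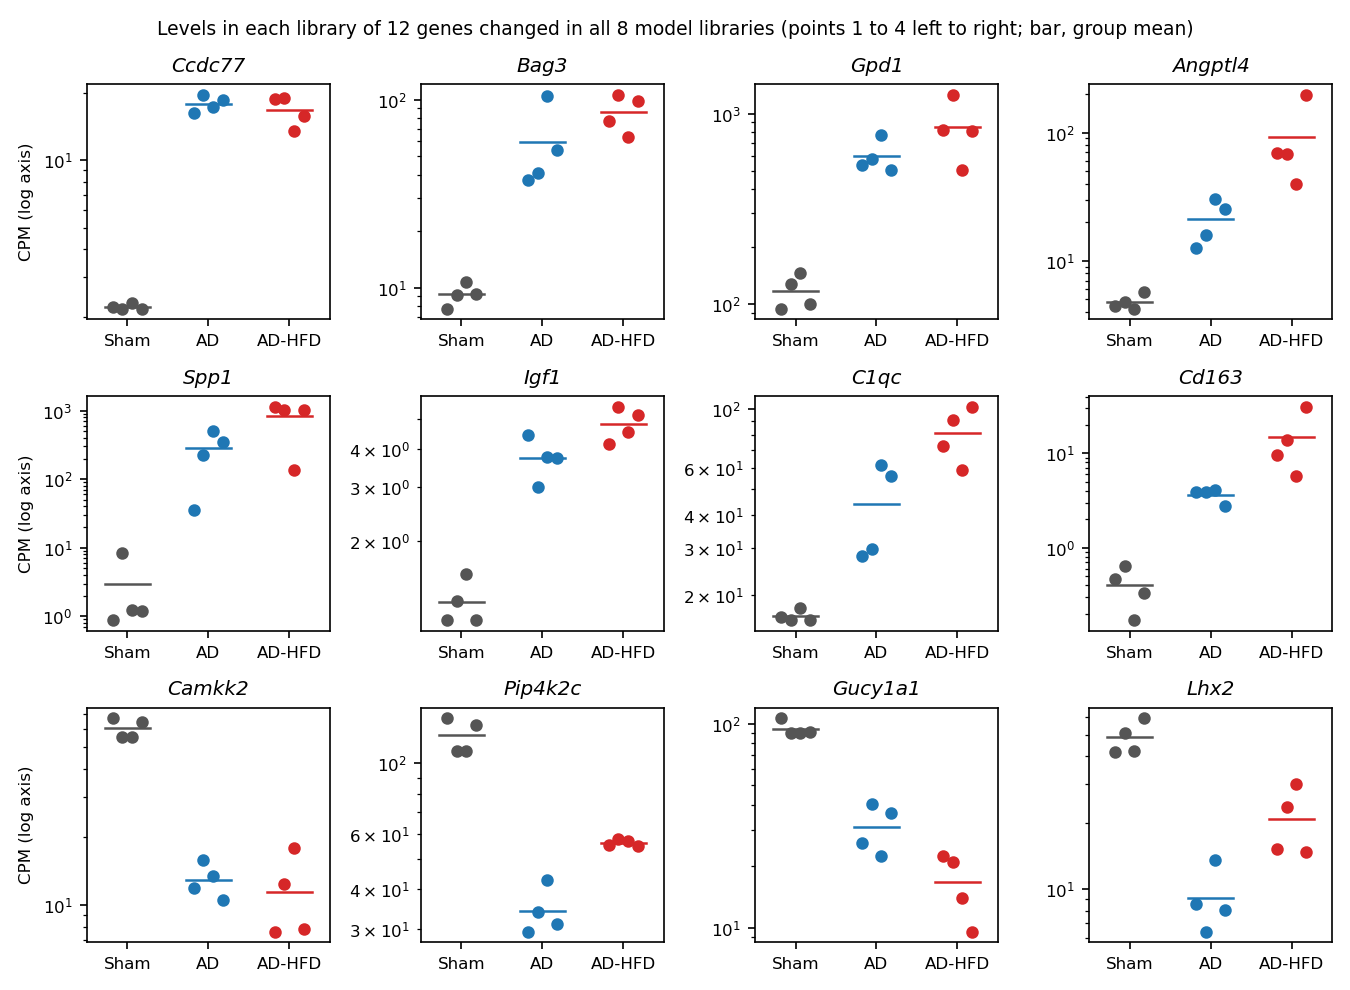
Levels (CPM, log axis) of 12 genes in each library of the 3 groups (horizontal axis), with points in the order of replicate number and a bar at the group mean. The genes are common rises or common falls, so in each panel the 8 model libraries lie on 1 side of all 4 Sham libraries. Ccdc77 goes from 2.17 to 2.31 CPM in Sham to 13.5 to 19.5 CPM in the model libraries.

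Genes of reactive, disease-associated microglia rose together. Of 21 measured members, 15 were called higher and 0 lower, 8 of them common rises (38.1%, against 6.08% of all genes), with a list median of 1.75 log2 against 0.04 over all genes. Spp1, the secreted phosphoprotein osteopontin, was at 0.876, 8.4, 1.22 and 1.21 CPM in Sham, 35.6, 229, 511 and 352 in AD and 1142, 1018, 138 and 1008 in AD-HFD. The lowest model library, AD-1, was still above the highest Sham library, Sham-2, and the rise was 7.36 ± 1.08 (edgeR adjusted p = 0.00229). Lgals3, the galactose-binding lectin galectin-3, was at 1.46, 2.01, 2.62 and 2.27 CPM in Sham and 4.02 to 109.8 CPM (median 42.3) in the model libraries. Igf1, a growth factor that microglia can secrete, was at 1.11, 1.28, 1.56 and 1.1 CPM in Sham and 3 to 5.48 CPM (median 4.28) in the model libraries. Both were higher in every model library, by 4.34 ± 0.73 and 1.75 ± 0.21 (edgeR adjusted p = 0.00425 and 0.000778). Cd63, a lysosomal tetraspanin, rose by 2.26 ± 0.47, but AD-1 at 84.2 CPM lay within the Sham range of 43.4 to 96.5 CPM. Trem2, the lipid receptor through which microglia enter this state, did not pass (-0.37 ± 0.22, edgeR adjusted p = 0.238), nor did Apoe, the lipid carrier (-0.01 ± 0.21, adjusted p = 0.972), whose sign depended on the libraries used. The list's count of called members was 7 without Sham-4 and 3 with the red blood cell mean as a covariate.

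Resting microglia markers were called higher in 4 of 14 members and lower in 1, with 9 not called (median 0.21). Over all genes 13.2% were called higher and 9.63% lower, so the lower count is not above its share. The 4 higher members were Itgam and Tyrobp, which encode a complement receptor chain and the signalling adaptor of Trem2, and Cx3cr1 and Csf1r, the receptors for fractalkine and colony-stimulating factor. Cx3cr1 was at 10.9, 11.8, 10.3 and 12.5 CPM in Sham and 16.2 to 36.7 CPM (median 19.9) in the model libraries, with no overlap, and rose by 0.95 ± 0.19 (edgeR adjusted p = 0.00893). Itgam rose by 3.38, Tyrobp by 1.91 and Csf1r by 0.59. Csf1r lost its call without Sham-4, Sham-3 or Sham-1 (edgeR adjusted p = 0.062, 0.0598 and 0.0567). P2ry12, the purinergic receptor of resting microglia, fell by 1.05 and overlapped with Sham. It was not called without any 1 of the Sham libraries, AD-4 or AD-HFD-2. Aif1, the gene of the microglial marker Iba1, did not pass (0.58 ± 0.23, edgeR adjusted p = 0.0806), although it did without AD-HFD-3 (edgeR adjusted p = 0.0145). With the red blood cell covariate 1 member was higher.

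Complement genes were higher from the first step of the classical pathway to the receptors. Of 19 measured members 16 were called higher and 0 lower, with 9 common rises and a median of 1.67. C1qc, 1 of the 3 chains of the C1q recognition molecule, was at 16.5, 16.1, 17.9 and 16.2 CPM in Sham, 27.9, 29.7, 61.9 and 56.1 in AD and 72.7, 91.3, 59 and 102 in AD-HFD. Every model library was above Sham, and AD-1 and AD-2 were the lowest of them. C1qc rose by 1.84 ± 0.25, C1qb by 1.67 ± 0.23 and C1qa by 1.199 ± 0.18 (edgeR adjusted p = 0.0015, 0.00157 and 0.00235). C3ar1, the receptor for the fragment C3a, was at 0.613, 1.41, 1.16 and 0.669 CPM in Sham and 2.16 to 14.4 CPM (median 4.4) in the model libraries and rose by 2.49 ± 0.43. C3, the central component, was among the 3 members that did not pass (0.60). The count was 10 without Sham-1, Sham-2 or Sham-3, and 7 with the red blood cell mean as a covariate.

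Markers of border macrophages and blood leukocytes rose in 10 of 14 measured members, 8 of them common rises (57.1%), with a median of 2.48. Cd163, the haemoglobin scavenger receptor of perivascular macrophages, was at 0.467, 0.639, 0.17 and 0.335 CPM in Sham, 3.88, 3.85, 4.12 and 2.76 in AD and 9.49, 13.7, 5.75 and 31.2 in AD-HFD. S100a8, a calcium-binding protein of neutrophils, was at 0.263, 0, 0.442 and 0.167 CPM in Sham and 2.78 to 29.8 CPM (median 5.84) in the model libraries. The sides did not overlap for either gene, and the rises were 4.18 ± 0.54 and 5.26 ± 0.79 (edgeR adjusted p = 0.00125 and 0.00224). S100a9, the partner of S100a8, rose by 5.18 and Mrc1, the mannose receptor, by 2.70. The list's mean was 1.499 to 2.20 log2 CPM in AD and 1.75 to 4.70 in AD-HFD, against -0.01 to 0.55 in Sham. Red blood cell markers overlapped between the sides: 2 of 6, Hbb and Alas2, were called higher and 0 were common rises. That count was 5 without AD-HFD-3, 1 without AD-HFD-2 or AD-HFD-4, and 0 without any 1 of the other 9 libraries. With the red blood cell mean as a covariate, 5 leukocyte and macrophage markers were called, and its part in their rise was not tested further.

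Chemokines and cytokines had the largest median rise of the lists described. Of 24 measured members 18 were called higher, 12 of them common rises, and 1 lower, with a median of 3.495 (the same with the 4 members that had no Sham count set at their lower bound). Ccl3, which attracts monocytes, and Cxcl1, which attracts neutrophils, had no count in any Sham library, against 0.408 to 23.2 CPM (median 8.2) and 0.117 to 37.5 CPM (median 5.25) in the model libraries. Their counts were pooled over the model libraries and set against a floor of 3 counts over the Sham group. On that measure they were at least 426-fold and 421-fold higher (edgeR adjusted p = 0.0119 and 0.0187). These folds are not a bound for single libraries. AD alone against Sham passed for Ccl3 (edgeR adjusted p = 0.0458) and not for Cxcl1 (edgeR adjusted p = 0.0971). Cxcl1 lost its call without Sham-1 (edgeR adjusted p = 0.0502). Ccl2, the main monocyte chemoattractant, was at 0.204, 0.479, 0 and 0.234 CPM in Sham, 1.77, 0.933, 382 and 14.5 in AD and 145, 89.1, 59.7 and 199.8 in AD-HFD. AD-1 and AD-2 were only a little above Sham while the other 6 model libraries were at 14.5 CPM or more, and the rise was 8.88 ± 1.92 (edgeR adjusted p = 0.0103). Ccl7, a further monocyte chemoattractant, showed the same split, with 0.242, 0.233, 169 and 3.7 CPM in AD and 28.4, 22, 30.4 and 30.5 in AD-HFD, and rose by 9.38 ± 1.95. Il1b, the interleukin released by inflammasome activation, was at 0.0876, 0.224, 0.17 and 0.234 CPM in Sham and 0.87 to 14.6 CPM (median 3.61) in the model libraries and rose by 4.51 ± 0.79 (edgeR adjusted p = 0.00432). Lif, a cytokine that signals through STAT3, rose by 8.04 and Ccl4 by 6.47. Cx3cl1, the neuronal ligand of Cx3cr1, was the member that fell, by 1.04, and was not called without Sham-4, Sham-3 or Sham-1. The share of all genes called lower was 9.63%. The count of higher members was 10 without Sham-1 and 4 with the red blood cell mean as a covariate. Chemokine genes have close relatives, so their counts are uncertain to the extent that reads were shared.

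The 12 largest common rises among genes with a name and a mean of at least 1 CPM also included Kng1, Ifit1, Lcn2, Hk3, Ccl12, Cxcl3 and Cxcr2. Kng1, which encodes kininogen, had no Sham count and 0.181 to 44.6 CPM (median 11.1) in the model libraries, at least 582-fold higher. It was 15.8 CPM in AD-3 but 0.18 to 0.29 CPM in the other 3 AD libraries, and its call was lost without any 1 Sham library (edgeR adjusted p = 0.0512 to 0.0635). Hk3, a hexokinase of myeloid cells, Cxcl3 and Cxcr2, the receptor of neutrophil chemokines, also had no Sham count and were at least 192-fold, 117-fold and 89.6-fold higher. Cxcr2 lost its call without any 1 Sham library (edgeR adjusted p = 0.0532 to 0.0659). Ccl12 was at least 149.8-fold higher and lost it without any 1 Sham library, AD-4 or AD-HFD-1 (edgeR adjusted p = 0.0526 to 0.0774). The folds given for these genes also use counts pooled over the model libraries. AD alone against Sham was not called for Kng1, Hk3, Ccl12, Cxcl3 or Cxcr2 (edgeR adjusted p = 0.0708 to 0.162).

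In the NF-kB and STAT3 feedback list 17 of 24 members rose, 12 of them common rises, with 0 lower and a median of 1.92. NF-kB and STAT3 are transcription factors that cytokine and Toll-like receptors activate, and many genes in the list restrain them. Socs3, the inhibitor induced by STAT3, was at 0.35, 0.255, 0.306 and 0.301 CPM in Sham, 1.83, 3.53, 63.6 and 15.2 in AD and 44.3, 58.9, 42.7 and 103 in AD-HFD. Stat3 itself was at 60.3, 57.1, 58.4 and 55.5 CPM in Sham and 72.1 to 366 CPM (median 289) in the model libraries. Both were above Sham in every model library, with AD-1 and AD-2 lowest, and rose by 6.88 ± 1.10 and 2.03 ± 0.35 (edgeR adjusted p = 0.00318 and 0.00461). Cd14, the co-receptor for bacterial lipopolysaccharide, was at 0.409, 2.01, 1.16 and 0.937 CPM in Sham and 3.76 to 139 CPM (median 67.2) in the model libraries and rose by 5.75 ± 1.00. Il4r, the receptor for interleukin 4, rose by 2.99. The count was 5 with the red blood cell mean as a covariate.

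Interferon-induced genes rose in 17 of 27 members, 7 of them common rises, with 0 lower and a median of 1.56. Ifit1, which binds foreign RNA, had no count in Sham and 1.97 to 28.6 CPM (median 7.52) in the model libraries. With counts pooled over the model libraries it was at least 437-fold higher (edgeR adjusted p = 0.00327). Gbp2, an interferon-induced GTPase, was at 4.88, 6.13, 7.34 and 4.68 CPM in Sham, 9.55, 8.89, 27.1 and 18.3 in AD and 122, 109, 25.8 and 169 in AD-HFD. The gap to Sham was small in AD-1 and AD-2 and large in AD-HFD-1, AD-HFD-2 and AD-HFD-4, and the rise was 2.84 ± 0.49 (edgeR adjusted p = 0.00452). Ifitm3 rose by 3.08, and Irf9, which carries interferon signals to the nucleus, by 1.23. The count was 9 to 11 without any 1 Sham library, 3 with the red blood cell covariate and 7 with the cortical covariate. Antigen presentation genes were called higher in 9 of 18 members, but 0 were common rises. The peptide transporter genes Tap1 and Tap2 overlapped with Sham and lost their calls without Sham-4 or Sham-1, with edgeR adjusted p of 0.0697 (Sham-4) and 0.0714 (Sham-1) for Tap1 and 0.0572 and 0.0599 in the same order for Tap2, which also lost it without Sham-2 (0.0523). Nlrc5, the activator of class I genes, overlapped through AD-2 and lost its call without Sham-4 or Sham-1 (edgeR adjusted p = 0.0572 and 0.0587). The list's count was 0 without either library, 4 without Sham-2, 3 without Sham-3 and 0 with either of those covariates.

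Reactive astrocyte genes rose in 21 of 24 members, 9 of them common rises, with 0 lower and a median of 2.81. Lcn2, the iron-carrier-binding lipocalin 2, was at 0, 0.0639, 0 and 0.1 CPM in Sham, 4.57, 2.83, 87 and 29.2 in AD and 164, 188, 21.9 and 257 in AD-HFD and rose by 10.63 ± 1.41 (edgeR adjusted p = 0.000372). The model libraries spanned 2.83 to 257 CPM and none reached down to Sham. Osmr, the receptor for oncostatin M, was at 1.78, 1.05, 1.02 and 1.1 CPM in Sham and 2.48 to 76.7 CPM (median 23) in the model libraries and rose by 4.06 ± 0.78. Cp, the copper-carrying ferroxidase ceruloplasmin, was at 7.27, 15.1, 10.1 and 5.89 CPM in Sham and 16.1 to 166 CPM (median 54.9) in the model libraries and rose by 2.70 ± 0.43 (edgeR adjusted p = 0.00675 and 0.00335 for these genes). Gfap, the astrocyte intermediate filament, was at 212, 478, 469 and 368 CPM in Sham, 473, 516, 2518 and 1227 in AD and 1873, 3891, 2129 and 252 in AD-HFD. AD-1 and AD-HFD-4 were within the Sham range, although AD-HFD-4 had the highest value of Lcn2, Osmr and Cp. The rise of 2.02 ± 0.65 (edgeR adjusted p = 0.044) lost its call without any 1 of the Sham libraries, AD-4, AD-3, AD-HFD-2 or AD-HFD-1 (edgeR adjusted p = 0.0576 to 0.125). The count of the list was 12 without Sham-4 or Sham-1 and 13 without Sham-3, and 4 with the red blood cell mean as a covariate.

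Genes of resting astrocyte function were called in 1 of 16 members, against 22.8% of all genes, but their levels moved in opposite directions between libraries. The list's mean was 7.11, 7.58 and 7.70 log2 CPM in AD-4, AD-1 and AD-2, above the Sham range of 6.75 to 6.90, and 5.91 in AD-3 and 6.04 to 6.67 in AD-HFD, below it. Without AD-4, AD-1 and AD-2, 8 members were called lower with 1 mean for the 5 model libraries left, of which only AD-3 is AD. With the cortical neuron covariate 5 were. Glul, the glutamine synthetase that recycles glutamate, was at 1439, 1411, 1413 and 1475 CPM in Sham and 1778 to 3457 CPM (median 2490.5) in the model libraries, with no overlap, and rose by 0.82 ± 0.20 (edgeR adjusted p = 0.0152). Its call was lost without Sham-2 or Sham-4 (edgeR adjusted p = 0.0508 and 0.0518). Slc1a2, the main glutamate transporter, was at 67.2, 64.9, 56.6 and 70.5 CPM in Sham and 19.5 to 59.4 CPM (median 38.7) in the model libraries and did not pass (-0.67 ± 0.23, edgeR adjusted p = 0.0553), although it did without AD-HFD-3 or AD-HFD-4 (edgeR adjusted p = 0.00469 and 0.0497) and, with all 12 libraries, in DESeq2 (adjusted p = 0.0344) and limma voom (adjusted p = 0.0477). It also did without AD-4, AD-1 and AD-2 with 1 mean for the 5 model libraries left (edgeR adjusted p = 0.0466). Sox9 and Ntsr2 had differences of 0.33 ± 0.24 and -0.17 ± 0.19 (edgeR adjusted p = 0.333 and 0.539).

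Extracellular matrix and remodelling genes rose in 18 of 27 members, 12 of them common rises, with 0 lower and a median of 1.90. The list's mean in AD-2, 2.94 log2 CPM, lay inside the Sham range of 2.57 to 3.10. Sparc, a collagen-binding glycoprotein, was at 334, 388, 404 and 371 CPM in Sham, 2091, 2001, 783 and 2382 in AD and 946, 749, 799 and 1779 in AD-HFD, and rose by 1.90 ± 0.33 (edgeR adjusted p = 0.00449). Here AD-4, AD-1 and AD-2, with AD-HFD-4, were the highest libraries. Serpinh1, the collagen chaperone HSP47, was at 31.1, 48.1, 39.1 and 31.9 CPM in Sham and 62.7 to 441 CPM (median 142) in the model libraries and rose by 2.06 ± 0.36. Lox, which crosslinks collagen, rose by 4.79 and Mmp3, the matrix protease stromelysin, by 6.05. The basement membrane collagens Col4a1 and Col4a2 rose by 3.42 and 2.89. The count was 10 without Sham-1, 11 without Sham-3 or Sham-4 and 6 with the red blood cell covariate. Endothelial markers were called higher in 6 of 16 members and lower in 1, against 13.2% and 9.63% of all genes. Slc2a1, the glucose transporter of the blood-brain barrier, was at 111, 109, 118 and 108 CPM in Sham and 181 to 702 CPM (median 356) in the model libraries and rose by 1.67 ± 0.34 (edgeR adjusted p = 0.00851). Ly6e fell by 0.92 ± 0.16 (edgeR adjusted p = 0.00455) with no overlap. The endothelial marker mean was 4.70 to 5.45 log2 CPM in the model libraries other than AD-HFD-1 (6.30) and AD-HFD-4 (7.51), against 4.86 to 5.13 in Sham. Its count of higher members was 1 or 2 without any 1 Sham library and 0 with the red blood cell mean as a covariate.

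Chaperones of the cytosol and the endoplasmic reticulum rose. The heat shock list, chaperones and co-chaperones mostly of the cytosol, had 10 of 14 members higher, 5 of them common rises, and 0 lower (median 0.73). Its mean was 6.391 log2 CPM in AD-1, inside the Sham range of 6.242 to 6.437, and 6.445 in AD-2. Cryab, the small heat shock protein alpha-B crystallin, was at 38.2, 55.9, 72.8 and 41.9 CPM in Sham and 106 to 297 CPM (median 160.2) in the model libraries and rose by 1.85 ± 0.28 (edgeR adjusted p = 0.00265). Hspb1, another small chaperone, was at 3.15, 6.07, 6.43 and 4.25 CPM in Sham, 11.5, 18.6, 739.6 and 104 in AD and 272, 650.2, 424 and 276 in AD-HFD and rose by 5.90 ± 1.16. Both were above Sham in all 8 model libraries. The abundant constitutive chaperones Hspa8 and Hsp90ab1 did not pass (0.25 and 0.10). Hspd1, the list's mitochondrial chaperonin, rose by 0.67 ± 0.15 and lost its call without Sham-4 (edgeR adjusted p = 0.0508). In the endoplasmic reticulum, 19 of 26 members of the unfolded protein and integrated stress response list were higher, 10 of them common rises, and 0 lower (median 0.74). Hspa5, the chaperone BiP, was at 343, 354, 311 and 296 CPM in Sham, 544, 474, 725 and 672 in AD and 958, 629, 580.5 and 1019 in AD-HFD. Its rise of 1.09 ± 0.19 (edgeR adjusted p = 0.00472) came with no overlap. Manf, a secreted endoplasmic reticulum protein, rose by 0.93, and Atf3, a stress-induced transcription factor, by 5.95 with AD-2 inside the Sham range. Called heat shock genes numbered 5 without Sham-2 or Sham-1 and 3 without Sham-4, and the unfolded protein count was 7 to 10 without any 1 Sham library. With the red blood cell mean as a covariate each was 3.

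Oxidative stress and iron genes under NRF2, and p53 target genes, were also higher. Of 18 NRF2 and iron genes 10 were higher, 5 of them common rises, and 0 lower. Hmox1, the haem-degrading oxygenase, was at 4.12, 4.79, 4.93 and 3.71 CPM in Sham, 10.3, 14, 590.5 and 99.6 in AD and 296, 318, 155 and 314 in AD-HFD and rose by 5.65 ± 1.10 (edgeR adjusted p = 0.0073). AD-1 and AD-2 were the lowest of the model side, and the other 6 model libraries were at 99.6 CPM or more. Mt2A, a metallothionein with close relatives, rose by 2.17 and overlapped with Sham. Gclm, a subunit of the glutathione-making ligase, rose by 1.00 and lost its call without Sham-4 (edgeR adjusted p = 0.0504). Of 16 p53 and growth arrest genes 10 were higher and 1 lower, against 13.2% and 9.63% of all genes. The mean of that list in AD-2, 3.37 log2 CPM, lay inside the Sham range of 2.88 to 3.39. Cdkn1a, the cell cycle inhibitor p21, was at 4.41, 11.1, 11.9 and 4.48 CPM in Sham and 13.2 to 104 CPM (median 57.3) in the model libraries, with AD-2 only just above Sham, and rose by 2.80 ± 0.43 (edgeR adjusted p = 0.00287). Phlda3, a p53-induced inhibitor of AKT, rose by 1.79 ± 0.30, Gadd45a, a damage-induced gene, by 2.70 ± 0.48, and Sesn2, a stress-induced inhibitor of mTOR, by 1.74 ± 0.30. The NRF2 and iron count was 4 without Sham-4 or Sham-1, 6 without Sham-2 or Sham-3 and 1 with the red blood cell covariate. The p53 count of higher genes was 5 without Sham-4 or Sham-1 and 4 with that covariate.

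**Figure D4:**
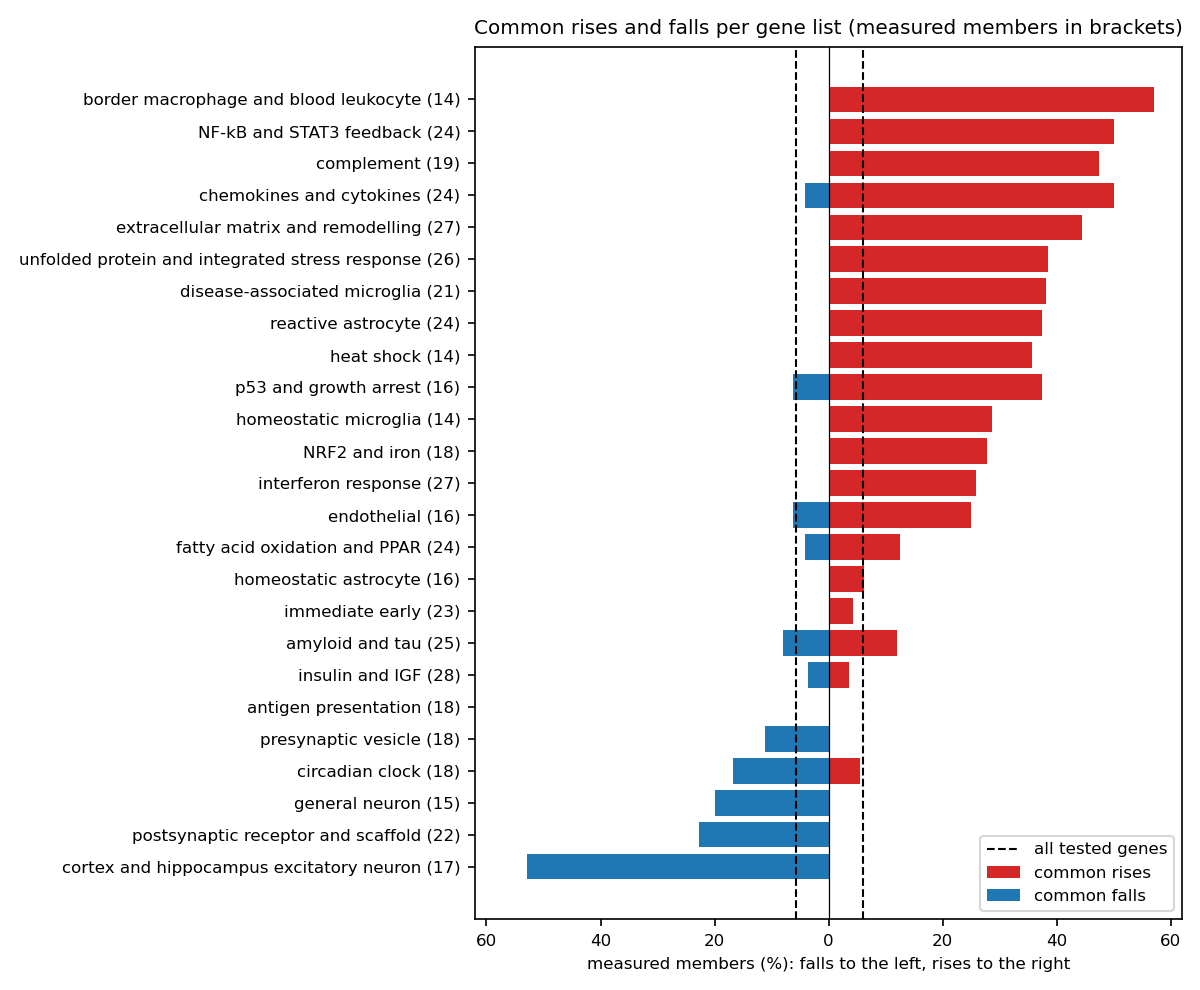
Share of each list's measured members (in brackets) that were common rises (red, to the right) or common falls (blue, to the left), in percent, for 25 lists. Dashed lines mark the shares over all tested genes, 6.08% for rises and 5.69% for falls; inflammatory and stress lists extend to the right and cortical neuron and synapse lists to the left.

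The start regions of several of these genes hold a textbook element of inflammatory or stress signalling, and 5 are shown as examples of the elements searched. RefSeq promoters of build GRCr8 (250 bases before to 50 after the start) were matched by symbol for 11385 of the 18850 tested genes, and for 771 common rises and 571 common falls. Capitals mark the match on either strand: the kappa-B consensus and an AP-1 site (TGANTCA) in Ccl7, the kappa-B consensus in Cxcl1, the interferon-stimulated response element (TTTC, any 2 bases, TTTC) and an AP-1 site in Gbp2, the endoplasmic reticulum stress element (CCAAT, any 9 bases, CCACG) in Hspa5, and the kappa-B consensus followed by the heat shock element (GAA, any 2 bases, TTC, any 2 bases, GAA) in Serpinh1. The matches in Cxcl1 overlap one another.
Cxcl1 (chr14:17479272-17479571, minus strand): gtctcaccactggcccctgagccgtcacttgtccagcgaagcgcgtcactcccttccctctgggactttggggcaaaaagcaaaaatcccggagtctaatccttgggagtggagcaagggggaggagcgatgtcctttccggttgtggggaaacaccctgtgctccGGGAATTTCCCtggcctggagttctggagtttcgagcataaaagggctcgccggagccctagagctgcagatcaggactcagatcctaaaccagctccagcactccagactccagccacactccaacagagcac
Ccl7 (chr10:67513845-67514144, plus strand): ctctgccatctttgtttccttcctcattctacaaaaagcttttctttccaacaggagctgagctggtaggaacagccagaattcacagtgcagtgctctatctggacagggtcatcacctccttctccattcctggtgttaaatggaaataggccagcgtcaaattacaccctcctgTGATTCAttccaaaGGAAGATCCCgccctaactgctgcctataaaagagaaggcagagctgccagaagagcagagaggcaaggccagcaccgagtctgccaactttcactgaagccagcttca
Gbp2 (chr2:234005477-234005776, plus strand): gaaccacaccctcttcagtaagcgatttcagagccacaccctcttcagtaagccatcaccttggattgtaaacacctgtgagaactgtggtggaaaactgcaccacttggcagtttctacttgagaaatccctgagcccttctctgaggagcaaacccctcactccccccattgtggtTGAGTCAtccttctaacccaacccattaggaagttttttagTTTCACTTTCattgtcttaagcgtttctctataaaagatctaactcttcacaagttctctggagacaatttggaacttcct
Hspa5 (chr3:38452766-38453065, plus strand): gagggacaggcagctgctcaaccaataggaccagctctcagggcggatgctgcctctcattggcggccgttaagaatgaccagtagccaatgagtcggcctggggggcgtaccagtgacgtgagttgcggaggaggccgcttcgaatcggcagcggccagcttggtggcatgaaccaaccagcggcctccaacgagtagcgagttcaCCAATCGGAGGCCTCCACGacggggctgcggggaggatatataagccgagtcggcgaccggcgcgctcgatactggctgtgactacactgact
Serpinh1 (chr1:163062927-163063226, minus strand): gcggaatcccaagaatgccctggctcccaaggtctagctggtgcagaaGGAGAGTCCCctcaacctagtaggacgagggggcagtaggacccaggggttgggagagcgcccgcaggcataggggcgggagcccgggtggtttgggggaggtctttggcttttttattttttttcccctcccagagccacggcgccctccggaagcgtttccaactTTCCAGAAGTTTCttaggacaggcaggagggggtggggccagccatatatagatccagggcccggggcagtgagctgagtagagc

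A match is a description of the letters and not a measured site. The interferon element was in 13 of 19 interferon list promoters (68.4%), the kappa-B consensus in 11 of 21 NF-kB and STAT3 list promoters (52.4%), the heat shock element in 5 of 11 heat shock list promoters (45.5%) and the stress element in 7 of 20 unfolded protein list promoters (35.0%). Over all 27457 promoters in the table the shares were 3.77%, 7.6%, 0.736% and 0.0765%. Over the common rises as a whole they were 4.28%, 12.3%, 1.56% and 0.519%, and over the common falls 2.1%, 8.23%, 0.525% and 0.0%. In the promoters of all tested genes they were 2.84%, 10.1%, 0.467% and 0.141%. The AP-1 site, which Fos and Jun proteins bind, was in 8.82% of common rises, 3.85% of common falls and 5.1% of tested genes. The STAT site (TTCCNGGAA) was in 1 of 21 NF-kB and STAT3 list promoters (4.76%). It was in 1.56% of common rises and 1.16% of tested genes. The cyclic AMP response element (TGACGTCA) was in 1.82% of common rises and 3.0% of tested genes. For the D-box (TTATGNAA) the shares were 2.46% and 1.89%. None of these shares was tested. The list shares count every matched member, called or not. Those lists were drawn up from known response genes, so their shares say nothing of the model libraries.

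Genes of cortical and hippocampal excitatory neurons fell in 9 of 17 measured members, all 9 of them common falls (52.9%, against 5.69% of all genes), with 0 higher and a median of -1.97. Lhx2, a homeobox factor of the forebrain, was at 42, 51, 42.1 and 59.5 CPM in Sham, 8.55, 6.41, 13.5 and 8.05 in AD and 15.2, 23.5, 30.1 and 14.8 in AD-HFD and fell by 1.82 ± 0.23 (edgeR adjusted p = 0.000962). Neurod6, a transcription factor of cortical projection neurons, was at 108, 87, 89.5 and 84.7 CPM in Sham, 2.22, 3.15, 8.46 and 2.1 in AD and 7.06, 7.26, 69.9 and 3.39 in AD-HFD and fell by 3.30 ± 0.66 (edgeR adjusted p = 0.00792). The lowest values of both genes were in AD-4, AD-1 and AD-2, the libraries rich in thalamus markers, and the smallest fall was in AD-HFD-3. Lmo4 fell by 1.64, Rtn4r, the receptor of myelin inhibitors, by 2.15, and Chrm1, the muscarinic receptor of cortex, by 3.16. Slc17a7, the vesicular glutamate transporter of these neurons, was at 1584, 1222, 1461 and 1703 CPM in Sham, 99.4, 4.29, 828 and 43.2 in AD and 310.3, 543, 1256 and 288 in AD-HFD. AD-HFD-3 overlapped with Sham and the difference of -1.97 ± 0.86 did not pass (edgeR adjusted p = 0.112), although it did without AD-3 (-3.13, adjusted p = 0.00677) and, without AD-4, AD-1 and AD-2, with 1 mean for the 5 model libraries left (-1.21, adjusted p = 0.049). Tcf7l2, a thalamus marker, rose by 2.49 ± 0.75 (edgeR adjusted p = 0.0353) through 390.3, 99.1, 6.24 and 223 CPM in AD, against 11.6, 13.1, 5.72 and 14.1 in AD-HFD and 5.17 to 9.69 in Sham. It lost its call without any 1 Sham library, AD-4 or any AD-HFD library other than AD-HFD-3 (edgeR adjusted p = 0.0503 to 0.104). The count of lower cortical genes was 14 without AD-3. Without AD-4, AD-2 and AD-1 it was 9 with 1 mean for the 5 model libraries left, of which only AD-3 is AD. It was 1 with either the red blood cell mean or the list's own mean as a covariate. A difference in dissection and a change within a region cannot be told apart from these data.

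Synaptic genes fell in part. Of 22 postsynaptic receptor and scaffold genes 7 were lower, 5 of them common falls (22.7%), and 0 higher (median -0.86). Gria3, an AMPA receptor subunit, was at 400.4, 297, 298 and 336 CPM in Sham, 114, 90.9, 132 and 83.6 in AD and 48.4, 55.5, 184 and 35.1 in AD-HFD and fell by 1.85 ± 0.35 (edgeR adjusted p = 0.00627) with no overlap. Of 18 presynaptic genes 5 were lower, 2 of them common falls, and 0 higher (median -0.77). Cplx2, a complexin that clamps vesicle fusion, was at 511, 376, 449 and 514 CPM in Sham and 79.9 to 294 CPM (median 154) in the model libraries and fell by 1.51 ± 0.33 (edgeR adjusted p = 0.0111). Of 15 general neuron markers 5 were lower, 3 of them common falls, and 0 higher (median -0.76). Snap25, a fusion protein of synaptic vesicles, fell by 1.16 ± 0.30 (edgeR adjusted p = 0.0206), and its call was lost without Sham-4, Sham-3 or Sham-1 (edgeR adjusted p = 0.0618, 0.0521 and 0.0761). Rbfox3, the gene of the neuronal nuclear marker NeuN, fell by 1.45 ± 0.36 (edgeR adjusted p = 0.0171) and lost its call without Sham-4 or Sham-1 (edgeR adjusted p = 0.0567 and 0.0578). The counts of these 3 lists moved most with AD-HFD-3, to 14, 12 and 12 without it. They were 1 to 3, 1 to 2 and 0 to 3 without any 1 Sham library, and 2 or 3 without AD-HFD-2, AD-HFD-1 or AD-4. Without AD-2 the postsynaptic count was 3 and the presynaptic count 2, without AD-1 the presynaptic count was 2 and the general neuron count 3, without AD-3 the general neuron count was 3, and without AD-HFD-4 the presynaptic count was 3. With the thalamus mean as a covariate the 3 counts were 1, 0 and 0, as they were with the red blood cell mean.

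Within the same limits, the largest common falls were otherwise in genes of varied function. Ackr2, a scavenging chemokine receptor, was at 4.17, 2.68, 2.75 and 5.02 CPM in Sham and 0 to 1.25 CPM (median 0.186) in the model libraries and fell by 3.62 ± 0.57 (edgeR adjusted p = 0.00287). Cftr, the chloride channel, fell by 3.49 ± 0.53, and Adprhl1, an ADP-ribosylhydrolase-like protein, by 3.40 ± 0.36 (edgeR adjusted p = 0.00219 and 0.000354). Olr59, an olfactory receptor gene whose family has many near copies, was at 24.2, 20.7, 18.8 and 23.1 CPM in Sham and 0.828 to 6.19 CPM (median 1.4) in the model libraries and fell by 3.43 ± 0.43 (edgeR adjusted p = 0.000962). Kcnv1, a silent potassium channel subunit, fell by 2.90, Adra1d, an adrenergic receptor, by 2.83 and Mlip by 2.78. Ccdc42 and Enthd1, at 0 to 1.44 CPM in the model libraries, fell by 3.20 and 3.11. Tbr1, a cortical transcription factor, fell by 2.73 and lost its call without any 1 Sham library, AD-4 or any AD-HFD library other than AD-HFD-3 (edgeR adjusted p = 0.0556 to 0.0918).

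Clock genes were called in both directions, with 6 of 18 lower, 3 of them common falls, and 2 higher. Over all genes 9.63% were called lower and 13.2% higher, so only the lower count is above its share. Nr1d1, the repressor REV-ERB alpha, was at 158, 139.6, 157 and 185 CPM in Sham and 50 to 125 CPM (median 78.7) in the model libraries and fell by 0.97 ± 0.18 (edgeR adjusted p = 0.00638). Npas2, a partner of BMAL1, fell by 1.54 ± 0.32, and Dbp, a D-box activator, by 1.24 ± 0.26 with AD-1 inside the Sham range. Nfil3, a D-box repressor, was at 7.62, 7.06, 7.51 and 7.06 CPM in Sham and 11.3 to 80.3 CPM (median 50.1) in the model libraries and rose by 2.53 ± 0.48 (edgeR adjusted p = 0.00624). The hour of death is not in the labels. The higher count was 1 without Sham-4, Sham-3 or Sham-1, and with the red blood cell covariate 0 clock genes were higher and 1 lower.

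Immediate early genes, switched on within minutes by activity or stress, were higher in 6 of 23 members and lower in 2. The 1 common rise was Klf4 (2.08). Over all genes 13.2% were called higher and 9.63% lower, so the lower count is near its share. Fos was at 10.9, 9.23, 12.2 and 14.4 CPM in Sham, 18, 8.25, 67.9 and 47.3 in AD and 181, 204, 144 and 393 in AD-HFD and rose by 2.95 ± 0.53 (edgeR adjusted p = 0.00499), with AD-2 below every Sham library. Jun rose by 1.98. Nr4a1, an activity-induced nuclear receptor, was at 67.9, 51.1, 72.5 and 79.5 CPM in Sham, 8.86, 7.7, 14.8 and 10.7 in AD and 35.4, 44.6, 38 and 63.2 in AD-HFD. It fell by 1.63 ± 0.20 on the mean of the groups (edgeR adjusted p = 0.000821), with a change of -2.69 in AD and -0.58 in AD-HFD, and AD-HFD-4 overlapped with Sham. Without Sham-1 or Sham-3 the count of higher members was 3, without Sham-3 or Sham-4 the count of lower members was 1, and without AD-3 it was 6. With the red blood cell covariate 1 member was higher and 1 lower.

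Genes that make, cleave or clear the amyloid precursor, or that act on tau, were called higher in 4 of 25 members and lower in 3. Their median was 0.00. Over all genes 13.2% were called higher and 9.63% lower, so these counts are close to the overall shares. App itself was at 2583, 2139, 2307 and 2265 CPM in Sham and 1406 to 2195 CPM (median 1949) in the model libraries and did not pass (-0.34 ± 0.15, edgeR adjusted p = 0.117), although it did without AD-HFD-3 (-0.41, adjusted p = 0.0172) and in DESeq2 with all 12 libraries (-0.35, adjusted p = 0.0245). Mapt, the gene of tau, was at 628, 559, 578 and 562 CPM in Sham and 181 to 469 CPM (median 363) in the model libraries, with no overlap. It fell by 0.77 ± 0.21 (edgeR adjusted p = 0.0238) and lost its call without Sham-4, Sham-3 or Sham-1 (edgeR adjusted p = 0.0638, 0.0603 and 0.092). Picalm, an endocytic adaptor, was at 199.5, 236, 217 and 192 CPM in Sham and 255 to 743 CPM (median 403) in the model libraries and rose by 1.08 ± 0.21 (edgeR adjusted p = 0.00732). Ece1, a peptidase that degrades amyloid beta, was at 47.4, 49.6, 47.9 and 50.9 CPM in Sham and 58.7 to 789 CPM (median 167) in the model libraries and rose by 1.96 ± 0.45 (edgeR adjusted p = 0.0135). Ide, the insulin-degrading enzyme, rose by 0.62 ± 0.15 and lost its call without Sham-3 or Sham-4 (edgeR adjusted p = 0.0513 and 0.0636). The list's counts of higher and lower genes were 2 and 0 without Sham-3 or Sham-4, its lower count was 0 without Sham-1, 1 without Sham-2, AD-2, AD-HFD-2, AD-HFD-1 or AD-4, and 5 without AD-HFD-3. Both were 0 with the red blood cell covariate.

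Metabolic lists differed in how many members were called. In the insulin and IGF list 3 of 28 members were higher and 2 lower, and Igf1 was the 1 common rise. These counts are not above the shares over all genes, 13.2% higher and 9.63% lower. Insr, the insulin receptor, did not pass (0.33 ± 0.22, edgeR adjusted p = 0.291). The lower count was 0 without Sham-1, 1 without Sham-4 and 4 without AD-3, and the higher count was 1 without Sham-2, Sham-3 or Sham-4. In the fatty acid oxidation and PPAR list 6 of 24 members were higher and 2 lower, with 12.5% common rises against 6.08% of all genes. The 3 common rises were Angptl4, an inhibitor of lipoprotein lipase, Plin2, which coats lipid droplets, and Pdk4, which blocks pyruvate oxidation. Angptl4 was at 4.41, 4.73, 4.22 and 5.72 CPM in Sham, 12.6, 16, 30.3 and 25.3 in AD and 69.3, 67.6, 39.4 and 196 in AD-HFD and rose by 3.21 ± 0.44 (edgeR adjusted p = 0.00169). Plin2 was at 9.87, 12.7, 11.4 and 9.77 CPM in Sham and 19 to 289 CPM (median 102) in the model libraries and rose by 3.25 ± 0.64, and Pdk4 rose by 2.18 ± 0.50 (edgeR adjusted p = 0.0073 and 0.0127). The enzymes of beta-oxidation in the list, such as Acadm, Hadha and Cpt2, did not pass (0.34, 0.17 and 0.45). The list's higher count was 3 without Sham-2 or Sham-4 and 1 with the red blood cell covariate. Its lower count was 0 without Sham-4 or Sham-1 and 1 without any other library except AD-HFD-3.

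Both model groups are compared with the same Sham libraries, so their folds against Sham are given side by side and not as independent evidence. AD against Sham called 1174 genes (6.23%) and AD-HFD against Sham 6162 (32.7%). The direct comparison of AD-HFD with AD called 2 genes (0.0106%), while 5751 had an unadjusted p under 0.05 (30.5%), and none of the 2219 common changes was among the 2 called. Of the 1146 common rises, 988 had the higher estimate in AD-HFD, by a median of 0.61 log2, and 591 had an unadjusted p under 0.05. Of the 1073 common falls, 737 had the lower estimate in AD-HFD, by a median of -0.18, and 172 had an unadjusted p under 0.05. Over all genes the median difference was 0.04. Ccdc77 was level between the groups (3.005 in AD and 2.91 in AD-HFD), whereas Angptl4 (2.14 and 4.29) and Cd163 (3.16 and 5.20) had larger estimates with the diet, and Lhx2 (-2.41 and -1.22) and Pip4k2c (-1.84 and -1.13) larger falls without it. None of these differences between the groups was called.

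**Figure D5:**
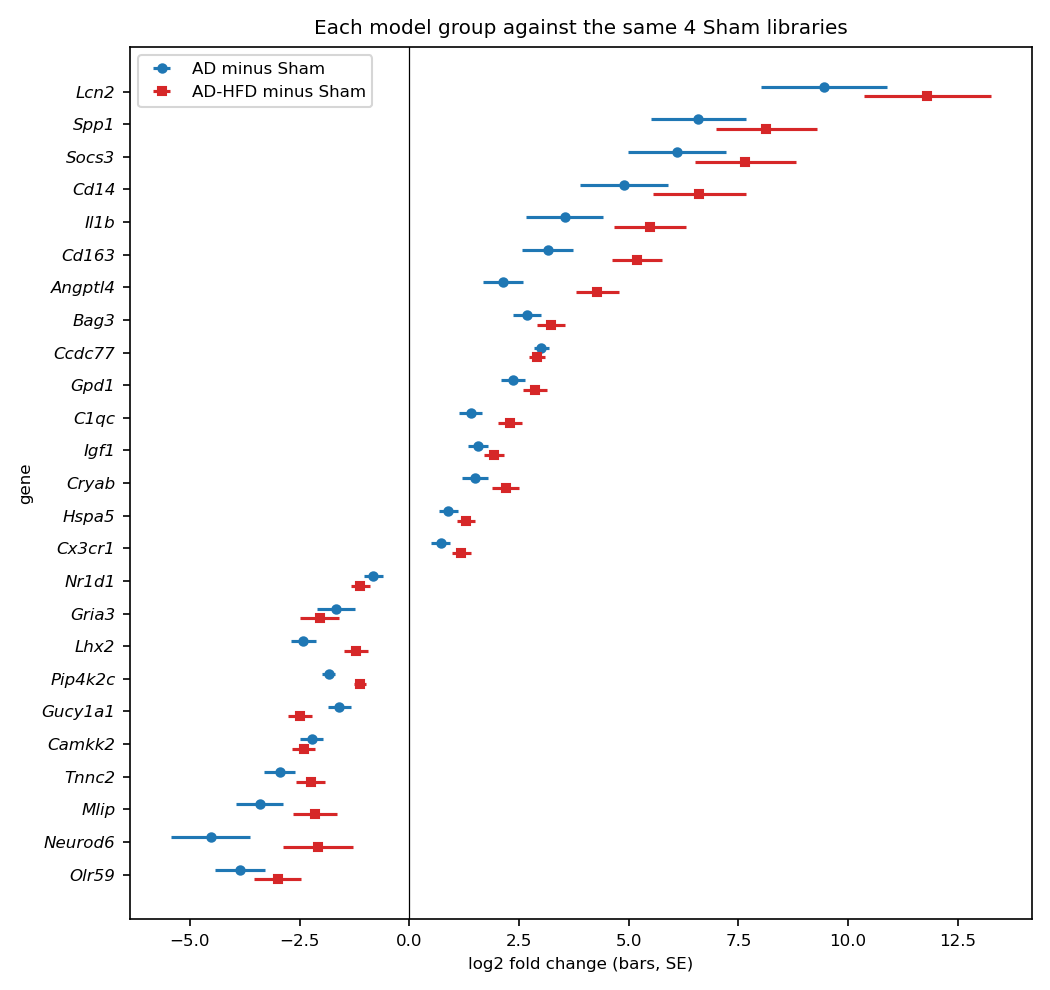
Log2 fold change (horizontal axis, bars give the SE) of 25 genes (vertical axis) in AD (blue circles) and in AD-HFD (red squares), each against the same 4 Sham libraries. The genes are common rises or common falls, so the same sign in both groups follows from the choice of genes. Most of the rises shown have the larger estimate in AD-HFD.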

How the data were processed

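RNA was measured by sequencing of mRNA libraries from brain, 4 each for Sham, AD and AD-HFD. The authors deposited 1 table of raw read counts per gene for the 12 libraries. FastQC and Trimmomatic are named in the submitters' processing notes; the aligner, the counting tool, its use of strand and the genome build are not given in the sources used here. Antisense or overlapping genes and near copies may therefore share reads. Of 31177 genes in the table, 9127 are unnamed new loci; where 117 symbols repeat, the copy with most counts is described.

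Genes passing filterByExpr over the 3 groups (18850) were scaled by TMM and fitted in edgeR 4.0.16 (R 4.3.3) with 1 mean per group. The quasi-likelihood test took the mean of AD and AD-HFD minus Sham, with Benjamini-Hochberg adjustment over all tested genes and a threshold of 0.05. The SE is the log2 fold change over the square root of F. DESeq2 1.42.0, limma 3.58.1 (voom), other scalings, filters and thresholds, left-out libraries and marker means as covariates were alternatives. The fits were tested on simulated data.

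Genes were named by rule: the 12 largest common rises and falls at a mean of 1 CPM or more, the 5 smallest p each way, up to 4 members of smallest p in each of 25 lists, and 12 fixed genes. A few genes that the rule names are not reported here. Other list members named were chosen after their values were seen. The comparison and the lists were chosen with earlier results of these data known. For a gene with no Sham count, counts pooled over the model libraries were compared with 3 counts summed over the Sham libraries. That floor covers counting error only. No 2 libraries agreed within sampling noise: the lowest chi-square per degree of freedom over 66 pairs was 18.9.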

Additional observations from a re-analysis of the deposited data

Results flagged for a closer look

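In groups of 4 libraries, 1 library stood far from the other 3 for 23 named genes (26 times). Chance does so in about 1 in 20 groups. The rule was applied to 135 named genes in each of 3 groups, so many of the 26 cases may be chance. AD-3 stood apart 9 times. Against the other AD libraries it was high for Kng1 (15.8 CPM against 0.181 to 0.292), Enthd1 (0.861 against 0), Il1b (5.14 against 0.87 to 1.18), Slc2a1 (555.7 against 181 to 195) and Igf1r (14.6 against 7.03 to 7.80). It was low for Sparc (782.8 against 2001 to 2382), Gclm (27.6 against 35.1 to 36.5), Rab3a (313 against 602 to 655) and Dbp (35.6 against 114.5 to 143.5).

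AD-HFD-3 stood apart 8 times and was the lowest of its group each time. It was low for Ccl3 (2.94 CPM against 17.8 to 23.2), Cxcl3 (1.22 against 4.49 to 5.82), Spp1 (137.9 against 1008 to 1142), Cd14 (48.3 against 119.8 to 139.3), Nlrc5 (1.56 against 6.08 to 7.92), Cryab (105.7 against 276 to 297), Hmox1 (155 against 296.0 to 317.5) and Gclm (20.4 against 49.4 to 54.7).

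AD-4 was high for Cx3cr1 (21.8 CPM against 17.3 to 17.9) and low for Cd163 (2.76 against 3.85 to 4.12). Within Sham, Sham-1 was high for Gucy1a1 (106 against 89.9 to 90.6) and Osmr (1.78 against 1.02 to 1.10), and Sham-2 was high for Spp1 (8.40 against 0.876 to 1.22) and low for Rab3a (618 against 813 to 836). Sham-3 was high for Mmp3 (0.136 against 0) and Phlda3 (22.1 against 16.5 to 17.2) and low for Lox (0.442 against 1.55 to 1.85).

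Nr4a1 was the named gene whose change differed between the model groups. Its level was 2.11 log2 higher in AD-HFD than in AD by the edgeR quasi-likelihood test of that difference (adjusted p = 0.02).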

How the results depend on the processing

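Of the 2219 common changes, 2218 kept their sign with the red blood cell covariate and 2182 with the cortical covariate. Most other alternatives could not turn it, since the groups do not overlap. limma voom called 1571 genes higher and 1983 lower. At an adjusted p under 0.01 there were 929 calls (479 higher, 450 lower; 442 common rises, 411 common falls), and with a fold of at least 2 added to the threshold of 0.05 there were 2707, with 1042 lower and 670 common falls. Leaving out 1 library gave 1511 to 6970 calls, 815 to 3719 higher, 621 to 3251 lower, 687 to 1481 common rises and 536 to 1629 common falls. Without AD-4, AD-1 and AD-2 there were 2396 common rises, and with 1 mean for the 5 model libraries left, 6651 calls (3881 higher, 2770 lower; 3172 common rises, 2316 common falls). Without AD-HFD-3 and AD-HFD-4, 2928 genes were lower and 1671 were common falls. Without Sham-2 and Sham-3 there were 289 calls (87 higher, 202 lower; 87 common rises, 201 common falls). With the thalamus covariate 1103 genes were lower and 682 were common falls. The red blood cell covariate gave 704 calls (405 higher, 299 lower; 316 common rises, 238 common falls). The cortical covariate gave 2450 (1625 higher, 825 lower; 468 common rises, 158 common falls). The fits with 1 mean for 5 model libraries and with the cortical covariate were chosen after seeing the data, and the cause of these changes was not tested.

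With the replicate number as a block there were 3331 calls. Whether the numbers pair the libraries is not stated. Deviations from the group means correlated at -0.317 to 0.0947 over 12 same-numbered pairs, which does not settle it, since libraries of a group also differ in region markers.

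Slc17a7 passed with the replicate block (-2.91, edgeR adjusted p = 0.0377). Named genes that turned sign were Tbr1 (0.10), Bsn (0.33), Aif1 (-0.062), Slc17a7 (0.92) and Tcf7l2 (-0.83) with the cortical covariate, Insr (-0.20) with the red blood cell covariate and Ttr (4.91) without Sham-2 and Sham-3. Tbr1 and Slc17a7 are members of the list whose mean is the cortical covariate, so their turn carries no separate information. Apoe turned to 0.028 with no scaling, and leaving out 1 library gave -0.10 to 0.071, above 0 without Sham-4, AD-3, AD-HFD-1 or AD-HFD-3. Of 125 called named genes, 91 stayed called in all 12 leave-one-out fits. A total count of 26668974 to 35351792 per library limits genes at a few counts, and 4 libraries a group limit the rest.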

Other observations

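Among the further lists, growth factor genes were called higher in 6 of 19 members and lower in 2 (median 1.45 log2 against 0.04 over all genes). Over all genes 13.2% were called higher and 9.63% lower, so the lower count is near its share. The common rises were Fgf2, a mitogen of glia and vessels, at 1.93 ± 0.41, and Ngfr, the low-affinity neurotrophin receptor, at 3.11 ± 0.80. Ntf3, neurotrophin 3, fell by 1.79. The higher count was 1 without any 1 of the Sham libraries, and the lower count was 1 without any library other than Sham-3, AD-2 and AD-HFD-3.

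Lysosome and phagocytosis genes were higher in 9 of 28 members and lower in 1, against 13.2% and 9.63% of all genes (median 0.62). Msr1, a macrophage scavenger receptor, rose by 7.34 ± 1.23, and Fcgr1a, an activating receptor for antibodies, by 2.85 ± 0.48. The higher count was 5 without Sham-3 or Sham-1, 3 without Sham-4 and 22 without AD-HFD-3, and the lower count was 0 without Sham-1. Proliferation genes were higher in 8 of 23 members, 2 of them common rises, Mcm2 and Cdk2 (1.43 and 1.29), and that count was 2 to 5 without any 1 of the Sham libraries, AD-HFD-2 or AD-HFD-1.

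In the betaine, choline and methionine cycle list 3 of 16 members were lower and 3 higher, against 9.63% and 13.2% of all genes. Mat2b, the regulatory subunit of methionine adenosyltransferase, fell by 1.21 ± 0.17 and Bhmt, the betaine-homocysteine methyltransferase, by 3.37 ± 0.59, while Mat2a, the catalytic subunit, rose by 0.89 ± 0.24. The higher count was 0 without any 1 of the Sham libraries and 5 without AD-HFD-3. Of 16 mature oligodendrocyte genes 3 were higher, against 13.2% of all genes, and 0 were common rises. The higher count was 0 without Sham-4, Sham-2 or Sham-1, 1 without AD-HFD-2 and 7 without AD-HFD-3.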
